A study of Mus musculus with 8 samples.

Results

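The genes described here encode the hormones of enteroendocrine cells and the proteins with which such cells make and store serotonin, measured in mouse colon with severe T-cell transfer colitis and in control colon. There are 10 of them among the 30672 genes that could be named on the arrays. They were chosen by name, not by their values: Gcg, Pyy, Insl5, Nts, Sct, Sst, Cck and Ghrl encode peptide hormones, Tph1 encodes the enzyme that starts serotonin synthesis, and Slc18a1 encodes a transporter that loads serotonin into vesicles. Each gene is represented by the brightest probe set that the array annotation ties to that gene alone.

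All 8 mice were C57BL/6 animals lacking Rag1 (Rag1-/-), which have no mature T or B cells of their own but keep their innate immune cells. The control group was 5 Treg-injected mice with non-inflamed colons, and the inflamed group was 3 mice that received naïve T cells and were killed when severely inflamed. Transfer took place at 10 weeks of age in both groups, death followed after 2 to 4 months, and the age label reads 4 to 5 months for both. The sources differ on the tissue: one describes distal colon, the other a strip running from cecum to rectum, so the sampled region is uncertain. RNA was labelled with an Affymetrix whole-transcript kit and hybridised with 1 array per mouse. The deposited values are log2 intensities made with RMA (robust multi-array average), so a difference of 1 is a 2-fold change in intensity.

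Differences are inflamed minus control on the log2 scale, ± the standard error (SE) of a limma fit over all genes, with n = 5 control and 3 inflamed arrays throughout. A gene is said to have risen or fallen where its Benjamini-Hochberg adjusted p over all genes was under 0.05. These p-values measure the spread between these 8 arrays only. Control arrays correlated with each other at 0.995 to 0.998 over all genes, inflamed arrays at 0.988 to 0.995, and pairs across the groups at 0.979 to 0.985. Inflamed replicate 2 stood apart: when limma weighted the arrays by their agreement with the fit, it received 0.17, against 0.84 to 1.71 for the others. Results that rest on it are given with and without it. Epcam, which defines epithelium, was high and level in both groups (12.24 ± 0.04 SD in controls, 12.23 ± 0.04 SD in inflamed colon). Slc26a3, the chloride exchanger of colonocytes, was at 11.95 ± 0.31 (SD) in controls and 10.65 ± 0.71 (SD) in inflamed colon. The sex of the mice is not in the labels. Xist RNA was high (log2 intensity above 8) on controls 3, 4 and 5 and inflamed replicate 3, and not on the other arrays.

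Enteroendocrine cells are scattered through the gut epithelium, sense the contents of the lumen and release hormones from secretory granules. In the colon, L cells make proglucagon (Gcg, the source of GLP-1 and GLP-2), peptide YY and, toward the distal end, insulin-like peptide 5. Enterochromaffin cells make most of the body's serotonin through tryptophan hydroxylase 1 (Tph1), and D cells release somatostatin, which restrains the secretion of other hormones. In whole tissue, fewer cells of a type and less RNA per cell cannot be told apart.

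Upstream sequences are shown for Gcg, Pyy, Insl5, Nts and Tph1, because these genes shared an order of arrays described further on, and in a shorter stretch for Sst, the gene with the smallest adjusted p of the 10. They are from RefSeq on the mouse build GRCm38.p6, written 5′ to 3′ on the minus strand, on which all of these genes lie. Windows were found for 9 of the 10 genes, all but Slc18a1. The first 5 sequences are the 250 bases before an annotated start, outside the annotated gene. They span chr2:62483654-62483903 for Gcg, chr11:102107833-102108082 for Pyy, chr4:103027272-103027521 for Insl5, chr10:102490419-102490668 for Nts and chr7:46672538-46672787 for Tph1. The Sst stretch, chr16:23890874-23890903, covers bases 59 to 30 before one annotated start and lies inside the annotated gene, which has an earlier start. Capitals mark CANNTG (the E-box, bound by the class of factors to which Neurog3 and Neurod1 belong), TGANTCA (bound by AP-1) and TGACGTCA (the cyclic AMP response element), each searched on both strands.
Gcg: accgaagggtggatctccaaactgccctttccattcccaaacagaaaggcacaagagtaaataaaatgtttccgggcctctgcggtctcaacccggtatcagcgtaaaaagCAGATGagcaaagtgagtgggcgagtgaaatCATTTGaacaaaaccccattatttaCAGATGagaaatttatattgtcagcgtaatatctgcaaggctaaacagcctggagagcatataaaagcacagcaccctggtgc
Pyy: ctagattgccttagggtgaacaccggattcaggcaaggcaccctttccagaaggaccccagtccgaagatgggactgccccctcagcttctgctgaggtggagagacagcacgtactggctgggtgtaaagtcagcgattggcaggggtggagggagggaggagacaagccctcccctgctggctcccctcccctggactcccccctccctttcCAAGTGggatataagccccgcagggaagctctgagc
Insl5: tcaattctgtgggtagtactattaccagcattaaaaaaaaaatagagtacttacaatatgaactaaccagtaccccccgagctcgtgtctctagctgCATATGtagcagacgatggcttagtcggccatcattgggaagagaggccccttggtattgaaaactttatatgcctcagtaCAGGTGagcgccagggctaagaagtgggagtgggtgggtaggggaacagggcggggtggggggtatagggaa
Nts: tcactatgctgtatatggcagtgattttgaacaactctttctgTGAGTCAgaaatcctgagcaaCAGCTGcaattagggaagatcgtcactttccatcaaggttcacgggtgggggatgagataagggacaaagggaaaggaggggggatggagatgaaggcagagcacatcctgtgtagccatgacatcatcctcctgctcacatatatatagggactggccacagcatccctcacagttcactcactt
Tph1: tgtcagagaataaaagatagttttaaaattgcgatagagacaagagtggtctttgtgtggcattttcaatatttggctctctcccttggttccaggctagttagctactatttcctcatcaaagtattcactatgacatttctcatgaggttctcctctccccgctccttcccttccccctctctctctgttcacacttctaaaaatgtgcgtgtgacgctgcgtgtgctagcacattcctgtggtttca
Sst: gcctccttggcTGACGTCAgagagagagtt

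The E-box letters occur 3 times in the Gcg window, starting 139, 108 and 83 bases before the start. They occur 36 bases before the start in Pyy and 153 and 72 bases before it in Insl5. Nts holds both an E-box, 186 bases before the start, and TGANTCA, 207 bases before it. None of the 3 motifs is in the Tph1 window. The cyclic AMP response element of Sst starts 48 bases before the start. No 2 marked motifs overlap. Among 32851 RefSeq mouse windows of the same length, 66.2% hold CANNTG, 6.75% hold TGANTCA and 1.55% hold TGACGTCA. The E-box letters are thus common in any window, and the full cyclic AMP response element is rare. A match describes the letters only.

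Hormone genes were lower in inflamed colon where they changed. Sst, Gcg, Tph1 and Sct fell (4 of 10), none of the 10 rose, and the other 6 missed the threshold. Of all genes tested, 13.1% were called in either direction, 5.04% lower and 8.08% higher. For the same 4 genes, all 3 inflamed arrays lay below all 5 controls, an arrangement seen in 9.17% of all genes. Sst, Gcg and Tph1 fell at least 2-fold, as did 0.893% of all genes. The difference was negative for 9 of the 10, and its median over them was -0.89, beside -0.01 over all genes.

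**Figure D1:**
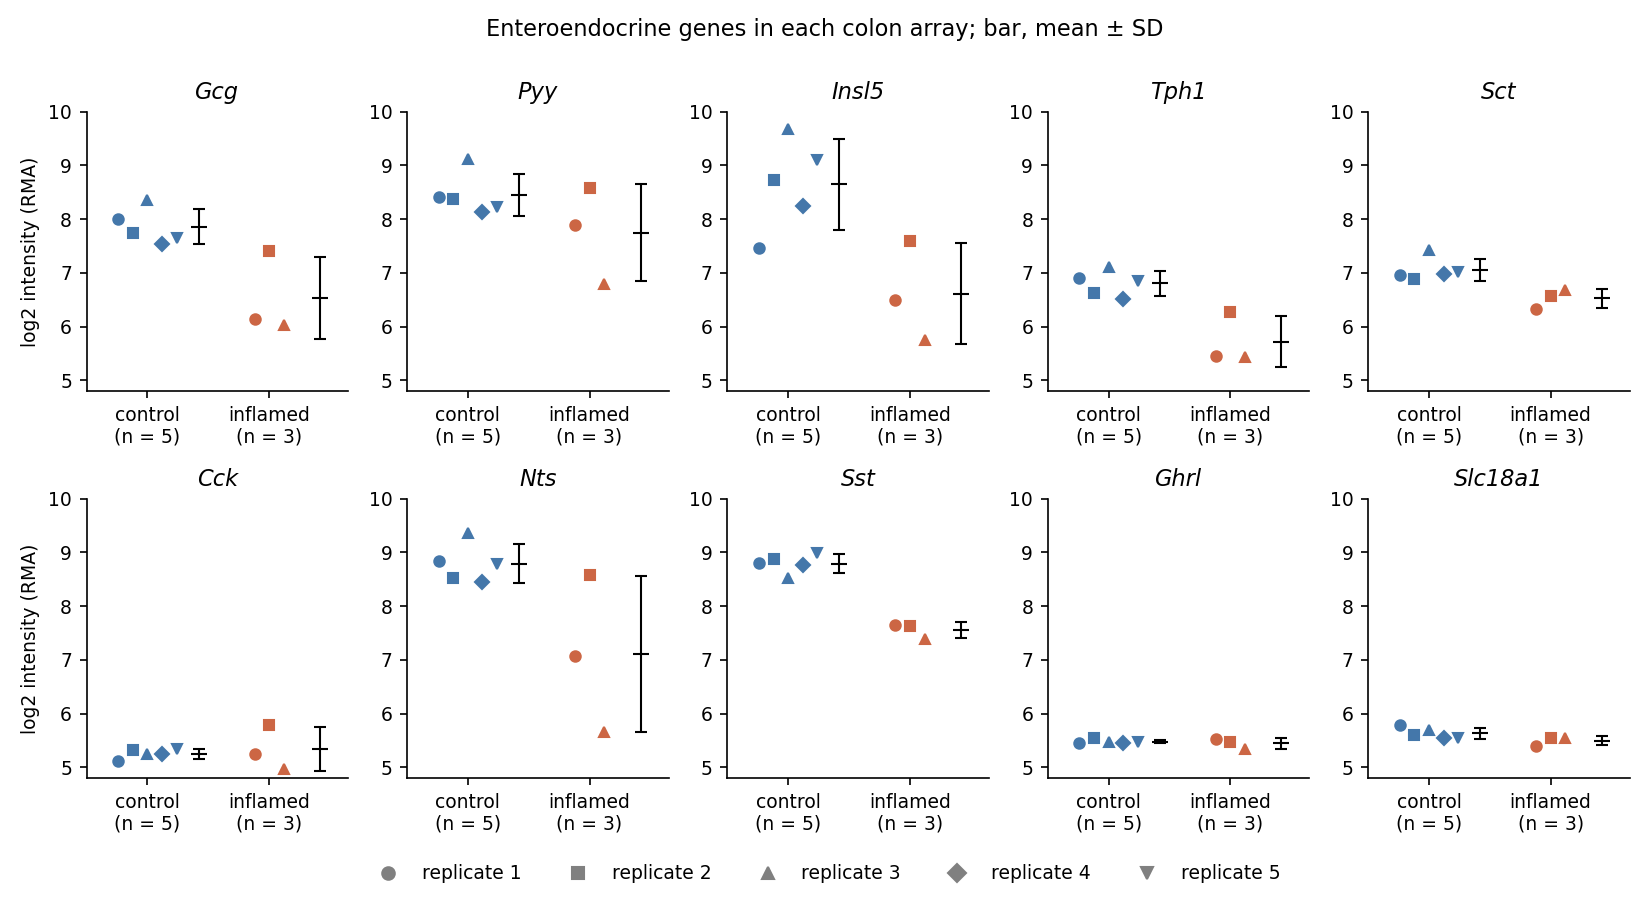
Log2 intensity (RMA) of the 10 genes on each array, with 5 controls in blue and 3 inflamed colons in red, marker shapes giving the replicate number and black bars the mean ± SD. The inflamed points lie wholly below the controls for Gcg, Tph1, Sct and Sst, and inflamed replicate 2 (square) is the highest inflamed point for 7 of the 10 genes.

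Somatostatin showed the most uniform fall. Sst read 8.80, 8.88, 8.52, 8.76 and 8.99 on controls 1 to 5, and 7.65, 7.63 and 7.39 on inflamed replicates 1 to 3. The inflamed arrays lay close together, inflamed replicate 2 included, and well under the lowest control. The difference was -1.23 ± 0.11, a 2.35-fold lower intensity (limma adjusted p = 0.000888). Leaving out any 1 array kept the difference between -1.30 and -1.15 and the adjusted p at or below 0.00476.

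Sst is also made by neurons of the gut wall, and some neuron markers were lower in the same arrays. Of 13 measured enteric neuron markers, 3 fell (Snap25, Stmn2 and Uchl1) and 0 rose, beside 5.04% lower and 8.08% higher of all genes. The other 10 were not called, and 1 of these lay above all controls on every inflamed array. The summed level of the 13 was 9.85 to 10.14 on controls and 9.63 to 9.79 on inflamed arrays. Snap25, a protein of vesicle fusion, differed by -0.96 ± 0.21 (limma adjusted p = 0.0255). These 3 calls are less steady than that of Sst: Snap25 missed the threshold without control 2 or 4 or inflamed replicate 1 or 3, Stmn2 held only without inflamed replicate 3, and Uchl1 missed it in 5 of 8 such fits, at adjusted p up to 0.0945, 0.0968 and 0.0761. The part of neurons in the Sst difference was not tested.

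Of the L-cell hormones, the proglucagon gene fell and the other two did not pass the threshold. Gcg read 8.0, 7.74, 8.35, 7.53 and 7.66 on the controls and 6.15, 7.41 and 6.04 on the inflamed arrays. Inflamed replicates 1 and 3 were far below every control, while replicate 2 lay just under the lowest control. The difference was -1.33 ± 0.34, a 2.51-fold lower intensity (limma adjusted p = 0.0444). The call was narrow. Without inflamed replicate 2 the difference was -1.77 (adjusted p = 0.00598), and without any other single array the adjusted p rose above the threshold, to 0.150 at most, with the difference still at -1.08 or lower. With low values raised to a floor of 4.89, the middle of the array medians, the adjusted p was 0.0819. Gcg itself had 0 values under that floor, and its difference did not change. A floor moves the adjusted p of such genes only because the fit runs over all genes.

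Insl5, whose peptide acts on the receptor Rxfp4, had the largest difference of the 10 and also the widest spread among controls. It read 7.47, 8.73, 9.67, 8.25 and 9.10 on the controls and 6.50, 7.60 and 5.74 on the inflamed arrays. Inflamed replicate 2 was above control 1, so the groups overlapped by that pair of arrays. The difference was -2.03 ± 0.58 (95% interval -3.38 to -0.68, limma adjusted p = 0.0602). It passed the threshold without control 1 (adjusted p = 0.0396) or without inflamed replicate 2 (adjusted p = 0.0403).

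Peptide YY, a hormone that slows gut transit and reduces appetite, differed least of the L-cell genes. Pyy read 8.41, 8.38, 9.12, 8.13 and 8.22 on the controls and 7.89, 8.57 and 6.78 on the inflamed arrays. Inflamed replicate 2 was above 4 of the 5 controls, and inflamed replicate 3 was far below all of them. The difference was -0.70 ± 0.40 (95% interval -1.65 to 0.24, limma adjusted p = 0.300), so a fall of more than 2-fold and no change both lie within the interval. The size rested on single inflamed mice: it was -1.11 without replicate 2 (adjusted p = 0.109) and -0.22 without replicate 3 (adjusted p = 0.659). In no fit that left out 1 array was Pyy called.

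Neurotensin, made by N cells and by some L cells, had the widest spread among inflamed arrays. Nts read 8.84, 8.53, 9.36, 8.44 and 8.78 on the controls and 7.07, 8.57 and 5.67 on the inflamed arrays. Inflamed replicate 2 stood within the control range and inflamed replicate 3 far below it. The difference was -1.69 ± 0.59 (95% interval -3.06 to -0.31, limma adjusted p = 0.108). Without inflamed replicate 2 it was -2.42 (adjusted p = 0.0153), and without inflamed replicate 3 it was -0.97 (adjusted p = 0.199).

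Secretin, best known from S cells of the upper small intestine, where it answers acid, was lower by a smaller step. Sct read 6.97, 6.89, 7.42, 6.98 and 7.02 on the controls and 6.33, 6.57 and 6.67 on the inflamed arrays. Both groups were tight apart from control 3, and they did not overlap. The difference was -0.53 ± 0.13, a 1.44-fold lower intensity (limma adjusted p = 0.0390). The call held without control 3 (adjusted p = 0.0262) and was lost without any other single array, with an adjusted p of up to 0.132 and a difference of -0.60 to -0.43. With a floor on low values the adjusted p was 0.0714, although Sct had 0 values under it and its difference did not change.

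The serotonin enzyme was lower in every inflamed mouse than in any control. Tph1 read 6.91, 6.63, 7.11, 6.52 and 6.85 on the controls and 5.46, 6.27 and 5.43 on the inflamed arrays. Inflamed replicates 1 and 3 were nearly equal, and replicate 2 lay between them and the controls. The difference was -1.08 ± 0.22, a 2.12-fold lower intensity (limma adjusted p = 0.0197). It missed the threshold without control 5 (0.0510), inflamed replicate 1 (0.0761) or inflamed replicate 3 (0.0606).

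Slc18a1, the vesicular transporter of enterochromaffin cells, lay near background in both groups and was not called. It read 5.78, 5.61, 5.70, 5.55 and 5.55 on the controls and 5.41, 5.55 and 5.54 on the inflamed arrays, beside median intensities of 4.92 to 5.11 for the arrays' intronic control probe sets. Near background here means near those medians. The 95th percentile of the same probe sets was 7.87 to 8.04, above every value of Tph1 and Sct. It was also above every inflamed value of Gcg, Insl5 and Sst. By that measure those values were not clear of background. For Slc18a1 the groups touched at the value 5.55. The difference was -0.14 ± 0.07 (95% interval -0.29 to 0.02, limma adjusted p = 0.216). RMA compresses such low signals, so a true difference would be understated.

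The other near-background genes were Cck, the gallbladder and satiety hormone of I cells, and Ghrl, the precursor of ghrelin, a hormone made mainly in the stomach. Cck read 5.11, 5.33, 5.24, 5.24 and 5.34 on the controls and 5.24, 5.78 and 4.98 on the inflamed arrays, which bracketed the controls. Its difference was 0.08 ± 0.16 (95% interval -0.31 to 0.47, limma adjusted p = 0.780) and turned negative, -0.14, without inflamed replicate 2. Ghrl lay between 5.46 and 5.54 on the controls and read 5.53, 5.47 and 5.34 on the inflamed arrays. Its difference was -0.04 ± 0.05 (95% interval -0.14 to 0.07, limma adjusted p = 0.644) and turned positive, 0.02, without inflamed replicate 3. Neither direction is therefore settled.

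**Figure D2:**
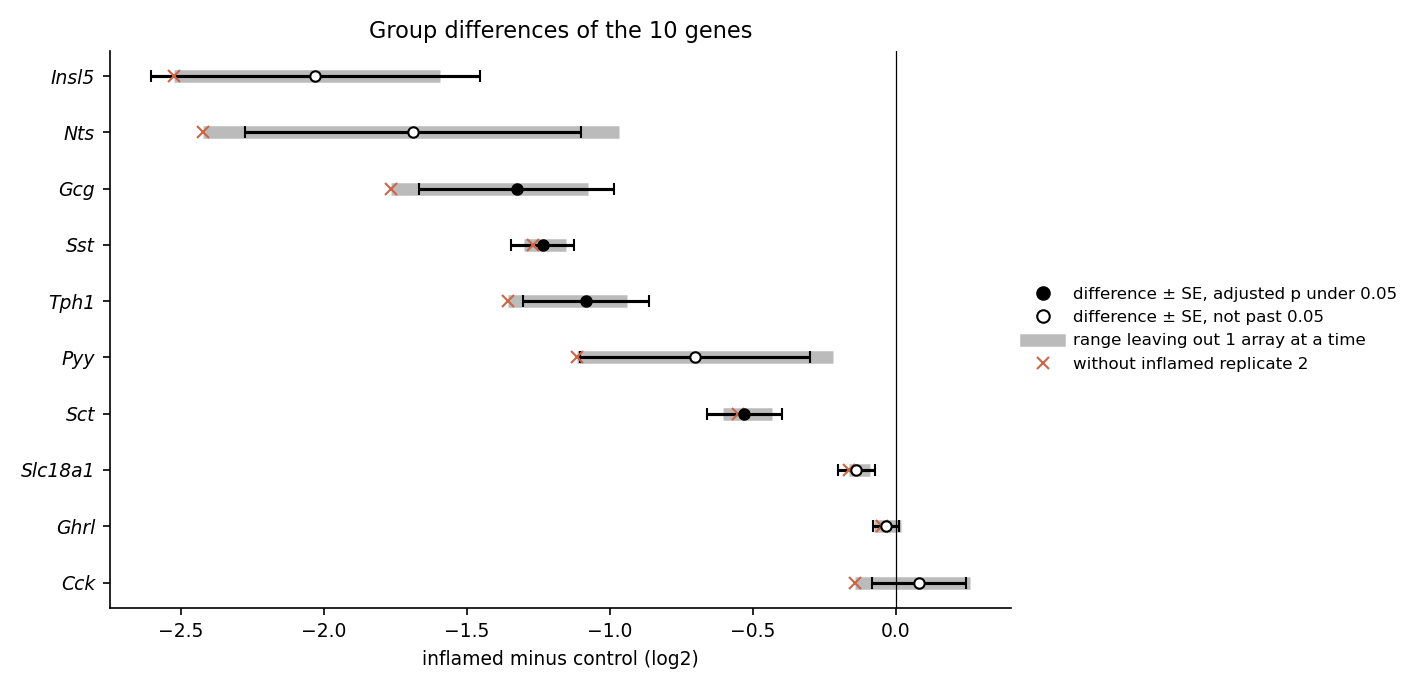
Inflamed minus control difference (log2) of the 10 genes with bars of ± SE from limma, for 5 control and 3 inflamed arrays. Grey bars give the range over the fits that each left out a single array. Crosses give the fit without inflamed replicate 2. The 95% intervals of Sst, Gcg, Tph1, Sct, Insl5 and Nts, which are not drawn, lie below 0. Only the first 4 of these genes passed the adjusted threshold.

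The hormone genes ordered the mice in much the same way. Control 3 was the highest control for 6 of the 10 genes and control 4 the lowest for 5, besides a tie with control 5 for Slc18a1. Among inflamed arrays, replicate 2 was the highest for 7 and replicate 3 the lowest for 8. Gcg, Pyy, Insl5, Nts and Tph1 all had control 3 highest, inflamed replicate 2 highest and inflamed replicate 3 lowest of their groups, a grouping seen after the values were known. Sst ran the other way among controls, with control 3 lowest, and its inflamed values did not single out replicate 2.

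Several of these genes varied widely among the 5 controls. The control SD of Insl5, 0.84, exceeded that of 99.9% of all genes, and those of Pyy (0.39), Nts (0.36) and Gcg (0.33) exceeded 99.0%, 98.7% and 97.8%. Tph1 (0.23) stood at 94.6%, Sct (0.21) at 92.6% and Sst (0.18) at 88.7%. Those shares are over all genes, without regard to their level, and dim genes such as Ghrl (19.1%) varied little. Posterior Hox genes mark position along the gut, and Hoxd13 varied widely too: it read 4.53, 4.95, 6.28, 4.90 and 7.59 on the controls and 7.69, 8.17 and 5.25 on the inflamed arrays. Its difference of 1.38 ± 0.91 was not called (limma adjusted p = 0.357). Of 12 measured posterior Hox genes, 1 fell (2 without inflamed replicate 3) and 0 rose, beside 5.04% lower and 8.08% higher of all genes. The part of the sampled position in the spread of the hormone genes was not tested.

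Differences within the Xist pattern were in the same direction for every called gene. On the arrays without high Xist (2 controls, 2 inflamed) Gcg differed by -1.09, Tph1 by -0.91, Sct by -0.48 and Sst by -1.20. On the arrays with Xist (3 controls, 1 inflamed) the differences were -1.81, -1.39, -0.47 and -1.36. Pyy differed by only -0.16 in the first set and by -1.71 in the second, but the second has inflamed replicate 3 as its only inflamed array, so that mouse and the pattern cannot be told apart. With the pattern as a block in the limma fit, Sst and Tph1 passed the threshold, while Gcg (adjusted p = 0.0606) and Sct (0.0530) did not.

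Within-array differences show whether hormone genes changed unequally. Intensities of different probe sets cannot be ranked against each other, so only the shift of such a difference between the groups is informative. Of 4 pairs compared with an exact two-sided permutation test (smallest possible p = 0.0179), none passed 0.05 after Benjamini-Hochberg adjustment over the pairs. No pair could pass alone, since even the smallest possible p would stay above 0.05 after that adjustment. Pyy minus Gcg was 0.41, 0.64, 0.77, 0.61 and 0.56 on the controls and 1.75, 1.16 and 0.75 on the inflamed arrays. Inflamed replicates 1 and 2 lay above every control, while replicate 3 was inside the control range. The shift was 0.62 (exact p = 0.0357, adjusted 0.0714), and 0.36 without inflamed replicate 1.

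Insl5 minus Pyy was -0.94, 0.35, 0.55, 0.11 and 0.88 on the controls and -1.39, -0.97 and -1.04 on the inflamed arrays. All inflamed arrays were below all controls here, though control 1 came close, and the shift was -1.33 (exact p = 0.0357, adjusted 0.0714). Insl5 minus Gcg shifted by -0.70 (exact p = 0.214, adjusted 0.232) and Tph1 minus Gcg by 0.24 (exact p = 0.232, adjusted 0.232), with overlapping groups in both. Tph1 minus Gcg shifted by 0.41 without inflamed replicate 2 and by 0.14 without inflamed replicate 3. A difference in response between these genes was therefore not detectable with 8 arrays, which does not show that they responded alike.

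**Figure D3:**
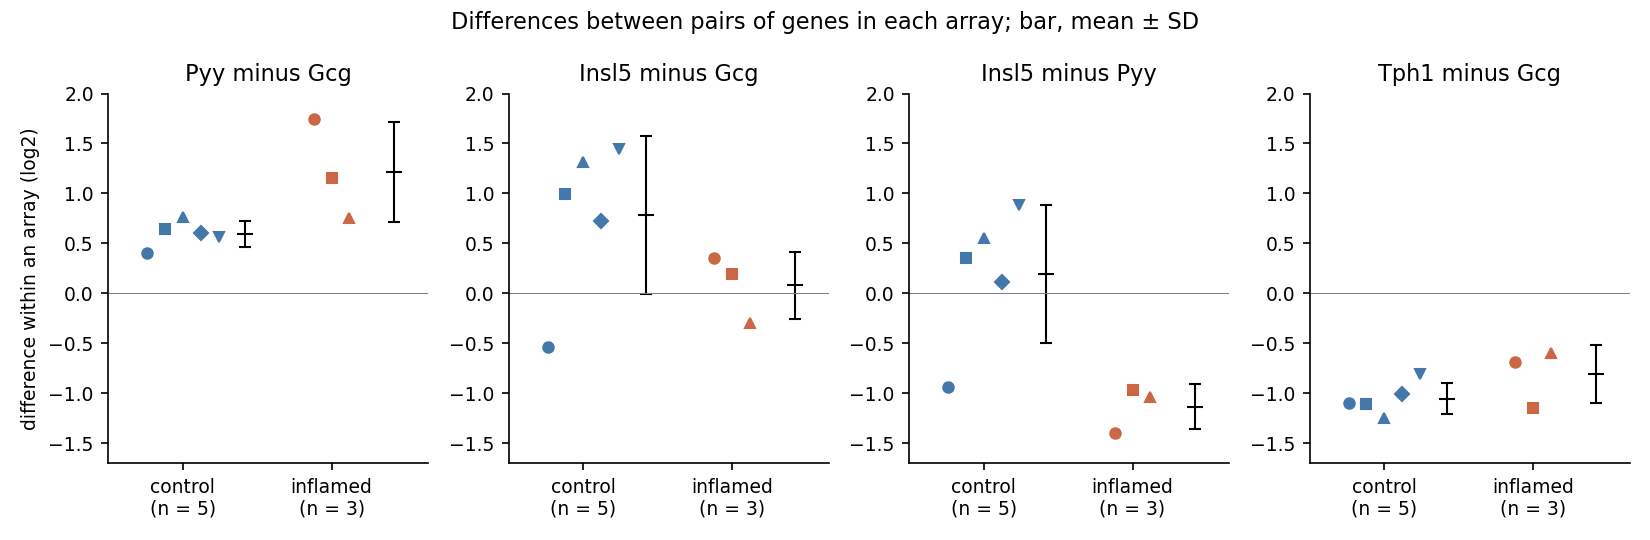
Difference between 2 hormone genes within each array (log2), for 5 controls in blue and 3 inflamed colons in red, with the replicate number as marker shape and black bars for the mean ± SD. Insl5 minus Pyy was negative on all 3 inflamed arrays, at -1.39 to -0.97, and on control 1 among the controls.

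Genes of granule proteins, which package hormones in enteroendocrine cells, fell as well. Of 8 measured granin and granule genes, 5 fell and 0 rose, beside 5.04% lower and 8.08% higher of all genes. Their median difference was -0.46, beside -0.01 over all genes. Chga, the standard marker of enteroendocrine granules, read 9.44, 9.23, 9.37, 8.80 and 9.27 on the controls and 7.06, 7.70 and 6.81 on the inflamed arrays. The groups were far apart, with inflamed replicate 2 again nearest to the controls. Chga differed by -2.03 ± 0.22 (limma adjusted p = 0.00179) and kept its call without any 1 array. Chgb, a related granin, differed by -1.71 ± 0.34 (adjusted p = 0.0179) and Scgn, a calcium sensor of endocrine cells, by -0.66 ± 0.12 (adjusted p = 0.0151). Scgn was under the intronic control medians on all inflamed arrays (4.49 to 4.77), and with a floor on low values its difference was -0.38 (adjusted p = 0.112). Without inflamed replicate 1, Chgb (0.0708) and Scgn (0.0590) missed the threshold, and only 1 of the 8 genes was called; without inflamed replicate 3 it was 3.

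Genes of prohormone processing (convertases, trimming and amidating enzymes, a convertase inhibitor and a chaperone) were called in both directions. Of 9 measured, 4 fell and 1 rose, beside 5.04% lower and 8.08% higher of all genes, and the median difference was -0.24. The count that fell was 1 without control 3 or 4 and 2 without control 2 or 5 or inflamed replicate 1, and the rise was lost without any array other than inflamed replicate 2. Pcsk1, the convertase that releases GLP-1 from proglucagon, read 7.01, 6.73, 6.83, 6.71 and 6.80 on the controls and 5.79, 6.56 and 5.64 on the inflamed arrays. Its order among inflamed arrays was that of Gcg, with replicate 2 just below the controls. Pcsk1 differed by -0.82 ± 0.20 (limma adjusted p = 0.0366); the call held without inflamed replicate 2 (0.00167) and was lost without any other single array (up to 0.128) and with a floor on low values (0.0690). Cpe, which trims the cut peptides, differed by -1.03 ± 0.23 (adjusted p = 0.0273) and was lost without controls 3, 4 or 5 or inflamed replicates 1 or 3 (up to 0.0830) and with the floor (0.0546). Pcsk5, a convertase of many tissues, differed most, by -2.59 ± 0.30 (adjusted p = 0.00222), and held without any 1 array.

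Genes of serotonin handling beyond Tph1 fell at the steps of synthesis, uptake and breakdown. Of 14 measured genes, 6 fell and 1 rose, beside 5.04% lower and 8.08% higher of all genes, with a median difference of -0.18. Ddc, which completes serotonin synthesis, read 7.74, 7.73, 8.09, 7.61 and 7.86 on the controls and 6.63, 7.0 and 6.14 on the inflamed arrays. All inflamed arrays were below all controls. Ddc differed by -1.22 ± 0.19 (limma adjusted p = 0.00719), Slc6a4, the serotonin reuptake transporter, by -0.75 ± 0.15 (adjusted p = 0.0211), Maoa, which degrades serotonin, by -1.07 ± 0.21 (adjusted p = 0.0184) and the related Maob by -1.35 ± 0.24 (adjusted p = 0.0114).

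The gene that rose was Gch1, the first enzyme in making tetrahydrobiopterin, the cofactor that Tph1 needs. Gch1 read 7.39, 6.93, 6.72, 7.19 and 7.09 on the controls and 8.28, 8.37 and 8.41 on the inflamed arrays, which were nearly equal and well above every control. It differed by 1.29 ± 0.14 (limma adjusted p = 0.00187). Gch1, Ddc and Maob kept their calls without any 1 array. Slc6a4 lost its call without control 2 or inflamed replicates 1 or 3 (up to 0.0792), and Maoa without inflamed replicate 1 (0.0697). Slc18a2, the second vesicular transporter, was not called (-0.16 ± 0.08, adjusted p = 0.226). Of 13 serotonin receptors, 1 fell and 0 rose, beside 5.04% lower and 8.08% higher of all genes. Htr4, a receptor that promotes gut motility, fell by 0.59 ± 0.12 on the log2 scale (limma adjusted p = 0.0219). Without control 2 or inflamed replicates 1 or 3, Htr4 missed the threshold (up to 0.0788). Htr7 rose without inflamed replicate 2 (limma adjusted p = 0.0492), but near background. Its control values, 4.61 to 4.88, lay under the intronic control medians, and its inflamed values were 4.92 to 5.26.

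**Figure D4:**
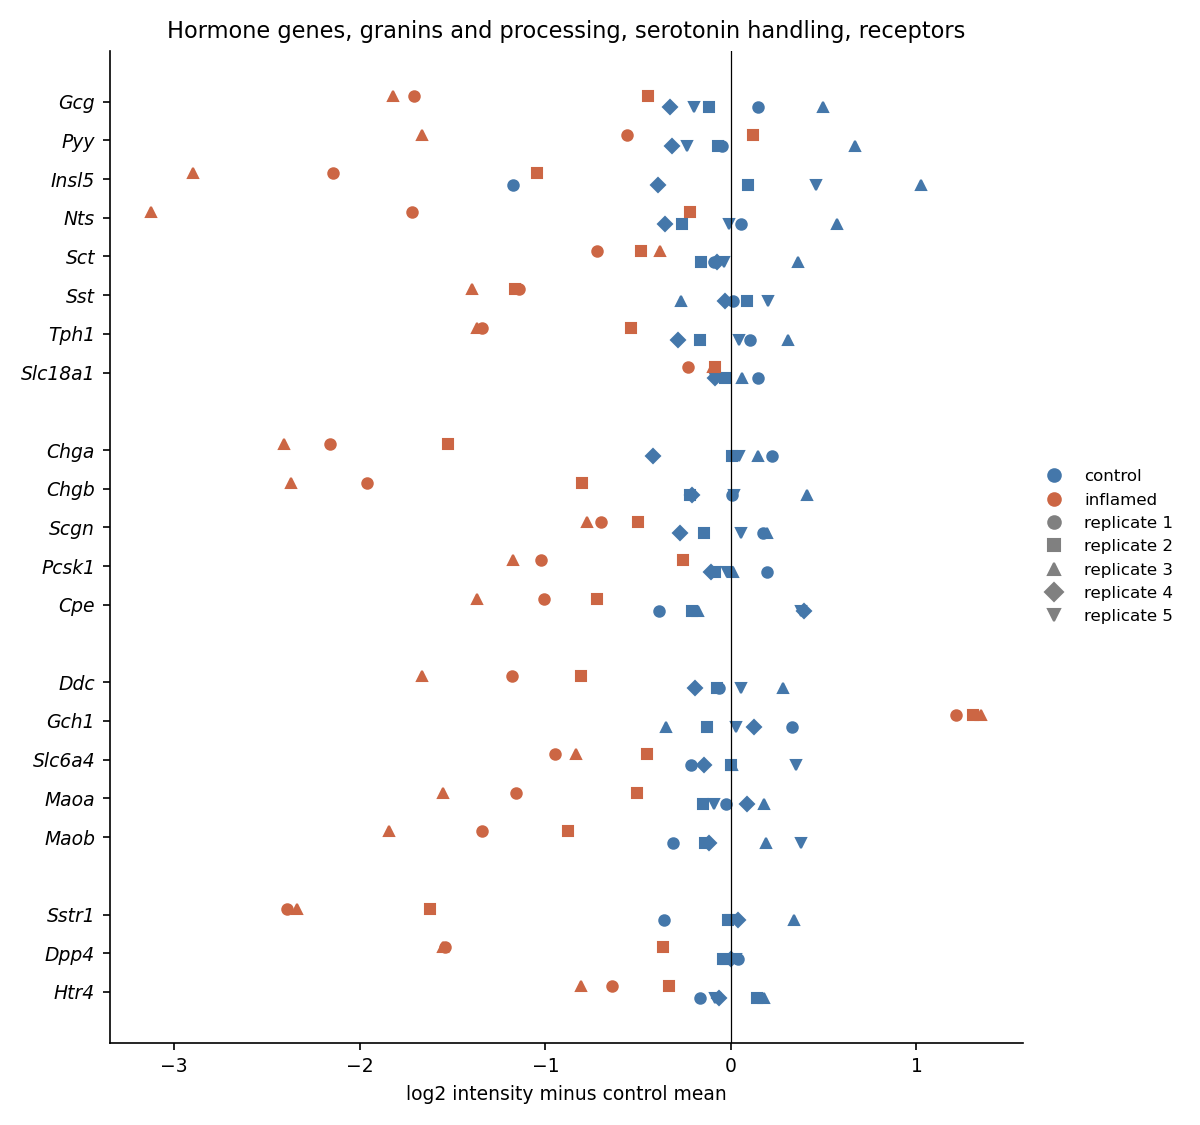
Log2 intensity minus the control mean on each array for 8 hormone and serotonin genes, then granule and processing genes, serotonin handling genes and receptors, with controls in blue, inflamed colons in red and the replicate number as marker shape. All inflamed points lie left of the controls for Sst, Chga, Ddc and Sstr1 among others, and Gch1 alone lies to the right, at 8.28 to 8.41 against 6.72 to 7.39.

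Receptors and peptidases that act on these hormones fell or were not called. Of 22 measured, 4 fell and 0 rose, beside 5.04% lower and 8.08% higher of all genes, with a median difference of -0.15. Without control 2 or 4 or inflamed replicate 1, 2 fell. Sstr1, a somatostatin receptor, read 6.94, 7.28, 7.64, 7.34 and 7.30 on the controls and 4.90, 5.68 and 4.96 on the inflamed arrays, so that it reached background in inflamed replicates 1 and 3. The measured difference, -2.12 (limma adjusted p = 0.00138), is therefore a bound on the size of the fall. The call held without any 1 array, as did that of Sort1, a sorting receptor that binds neurotensin (-0.53 ± 0.09, adjusted p = 0.0110). Dpp4, the peptidase that inactivates GLP-1, differed by -1.15 ± 0.26 (adjusted p = 0.0286). Inflamed replicate 2 set its spread: without that array the adjusted p was 5.85e-05, and without any other single array it missed the threshold (up to 0.100), as it did with a floor on low values (0.0568).

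Of 14 measured enteroendocrine transcription factors, 2 were called lower and 0 higher, beside 5.04% and 8.08% of all genes. Pax4 fell by a small step (-0.25 ± 0.04, limma adjusted p = 0.0109) but lay near background. It was at 5.28 to 5.44 on controls and 5.05 to 5.14 on inflamed arrays, beside intronic control medians of 4.92 to 5.11. St18 was called too (adjusted p = 0.0184), but all its values, 4.12 to 4.57, lay under the intronic control medians, so they give no measured fall. Its difference was 0 with a floor on low values, and its adjusted p was 0.0530 with equal array medians and 0.0677 without inflamed replicate 1. Without inflamed replicate 2 or 3, 4 of the 14 fell. Of 14 nutrient, bile acid and mechanical sensors, limma called 0 in either direction, with 5 at an unadjusted p under 0.05. Ffar3, a receptor for short-chain fatty acids, differed by -0.33 ± 0.11 (adjusted p = 0.100; 0.0448 without inflamed replicate 3) and Trpa1, an irritant-gated channel of enterochromaffin cells, by 0.28 ± 0.08 (adjusted p = 0.0549; 0.0177 without inflamed replicate 2). All Trpa1 values lay under the intronic control medians.

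Among 12 other peptide genes, 1 rose and 1 fell, beside 8.08% higher and 5.04% lower of all genes. Nucb2, the precursor of nesfatin, rose by 1.54 ± 0.12 (limma adjusted p = 0.000543), with 7.05 to 7.38 on the controls and 8.48 to 8.98 on the inflamed arrays. Gal, the neuropeptide galanin, fell by 0.70 ± 0.10 on the log2 scale (adjusted p = 0.00444). Both held without any 1 array, while 2 rose without inflamed replicate 1 or 2 and 2 fell without inflamed replicate 2.

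The profiles nearest to the called genes belonged to no hormone gene. Likeness was the root-mean-square difference over the 8 arrays, each profile taken relative to its own control mean. For Gcg the nearest were Gstm2 (0.179), Hepacam2 (0.222) and Rgs13 (0.229), and for Tph1 they were Nceh1 (0.0957), Ccl6 (0.123) and Hadh (0.133). For Sct they were Zfp768 (0.0866), Clstn1 (0.0943) and Hagh (0.0998), and for Sst they were Sema5a (0.156), Farp2 (0.170) and Slc8a1 (0.178). Against these, the root mean square of each hormone gene's own profile was 0.926 for Gcg, 0.722 for Tph1, 0.367 for Sct and 0.769 for Sst. The order is a description and was not tested.

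Markers of other cells differed in direction. The counts below stand beside 5.04% called lower and 8.08% called higher of all genes. The 12 general epithelial markers were not lower: 1 rose (Krt20) and 1 fell (Cdx1), and their summed level was 15.07 to 15.25 on controls and 15.29 to 15.39 on inflamed arrays. Krt20 missed the threshold without control 2 or 5 or inflamed replicate 1 or 2 (up to 0.0537) and Cdx1 without inflamed replicate 1 or 3 (up to 0.0651), while without control 5, 2 fell. Markers of specialised epithelial cells fell in part. Of 10 absorptive colonocyte markers, 7 fell and 0 rose (summed 15.37 to 15.55 against 14.46 to 14.95; 4 fell without any of controls 2 to 5 or inflamed replicate 1), and of 9 goblet cell markers, 3 fell and 0 rose (14.99 to 15.24 against 14.45 to 15.14, overlapping through inflamed replicate 2). Leukocyte markers rose in 10 of 10 (9.90 to 10.00 against 12.16 to 12.29), and smooth muscle markers fell in 6 of 8 (13.70 to 14.22 against 13.17 to 13.34). With the epithelial markers set equal on all arrays, Gcg, Tph1, Sct and Sst still fell, and Insl5 and Nts passed the threshold too. The part of leukocytes and muscle in the hormone differences was not tested.

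Mast cells can also express Tph1, and their markers were called in both directions. Of 11 markers, 4 rose and 1 fell, beside 8.08% higher and 5.04% lower of all genes. Their summed level was 8.98 to 9.23 on controls and 8.74 to 9.24 on inflamed arrays. Mcpt1, a mucosal mast cell protease, lay under the intronic control medians in all controls (3.59 to 4.03) and at 5.55 to 7.32 on inflamed arrays. With a floor on low values its rise was 1.79 (limma adjusted p = 0.0453). Mcpt2 was likewise under those medians in all controls, and with the floor its call was lost (0.68, adjusted p = 0.249). With that floor 1 marker rose. Kit, the growth factor receptor that mast cells share with pacemaker cells of the gut, fell by 1.39 ± 0.17 on the log2 scale (limma adjusted p = 0.00272). The part of mast cells in the Tph1 difference was not tested. Pancreas also makes Gcg and Sst. Its trypsinogen Prss1 lay near background at 4.93 ± 0.12 (SD) in controls and 4.78 ± 0.08 (SD) in inflamed colon. Of 5 pancreas markers, 1 fell, Cela1, and 0 rose, beside 5.04% lower and 8.08% higher of all genes. Cela1 read 8.43 ± 0.40 (SD) in controls and 7.39 ± 0.19 (SD) in inflamed colon. It differed by -1.04 ± 0.23 (limma adjusted p = 0.0256), a call lost in 6 of 8 fits that left out 1 array (up to 0.0772). The summed pancreas level was 8.52 to 9.27 on controls and 8.11 to 8.26 on inflamed arrays. The part of pancreas in the Gcg and Sst differences was not tested.

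**Figure D5:**
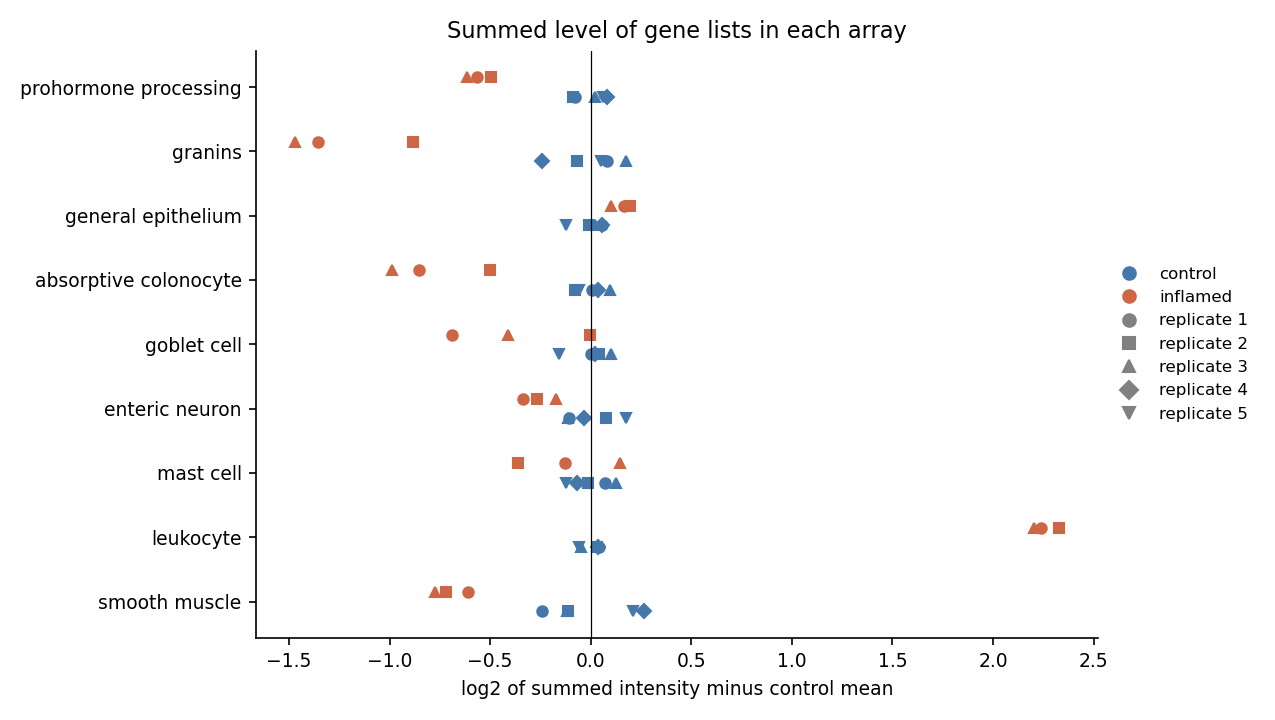
Log2 of the summed intensity of each gene list on each array, minus its control mean, with controls in blue, inflamed colons in red and the replicate number as marker shape. Granins were lower on all inflamed arrays, leukocyte markers higher (12.16 to 12.29 against 9.90 to 10.00), and general epithelial markers lay slightly above the controls.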

How the data were processed

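RNA was measured on 8 arrays, 5 control and 3 inflamed. The authors deposited log2 intensities per probe set, made with Affymetrix Expression Console and RMA, per the submitters' processing notes. For the array model and the software settings, the sources used here give nothing. The number of arrays limits the precision.

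The table held 72688 probe sets. Annotation existed for 32750, and 1525 of them, which could not be tied to exactly 1 gene, went unnamed. Symbols were updated through RefSeq (GRCm38.p6), and the brightest probe set stood for a gene. Over 30672 genes, limma 3.58.1 (R 4.3.3; lmFit, eBayes, without covariates) compared the groups, and an exact permutation test compared within-array differences. The code was tested on simulated data. The named genes were the 10 described genes, the 3 called genes of each list with the largest change (the 2 largest of any where under 2 passed), the 3 nearest profiles of each called gene, and genes that make, receive or remove a product. Epcam and Slc26a3 were added as a check of the tissue, after their values were seen. The genes and lists were chosen with earlier results of these data known.

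Alternatives covered scaling, a floor on low values, dim genes, probe set choice, variance model, array weights, blocks, and each array left out.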

Additional observations from a re-analysis of the deposited data

Results flagged for a closer look

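In the 5 control values of each of the 10 genes and 4 gene pairs, 14 groups in all, the highest or lowest array was compared with the rest by Dixon's gap test, which flags about 1 in 20 groups by chance; 3 stood apart. Pyy read 9.12 on control 3, against 8.13 to 8.41 on the other controls. Sct read 7.42 on the same control 3, against 6.89 to 7.02 on the others. Ghrl read 5.54 on control 2, against 5.46 to 5.47, and lies near background on every array. Without control 3 the Sct difference kept its call (limma adjusted p = 0.0262) and Pyy remained uncalled.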

How the results depend on the processing

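Under 19 alternatives, Sst kept its direction and call in 18, Tph1 in 15, Gcg and Sct in 9 each. Of the 10 genes, 4 were called lower in the reported fit, 2 (Sst and Tph1) with a floor on low values, and 2 (the same genes) with the Xist pattern as a block. None of the 10 had a value under the floor, so their differences did not change with it. Leaving out 1 array gave 1 to 5, the 5 without inflamed replicate 2 (Gcg, Insl5, Nts, Sst, Tph1) and 1 (Sst) without control 5 or inflamed replicates 1 or 3. Equal array medians, quantile normalization or leaving out dim genes gave 5, adding Insl5, and array weights or equal epithelial markers gave 6, adding Nts as well. None rose in any fit. Cck, which turned negative with array weights (-0.061) and without inflamed replicate 2, lay between -0.14 and 0.26 when 1 array was left out. Ghrl, which turned positive without inflamed replicate 3, lay between -0.076 and 0.019.

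Over all genes, limma called 4024 (2477 higher, 1547 lower; 8743 at an unadjusted p under 0.05). Leaving out 1 array gave 2507 (without inflamed replicate 1) to 4563 (without inflamed replicate 2). The split was 2362 higher and 2212 lower after quantile normalization and 1952 and 2005 with epithelial markers equal. Replicate numbers did not pair the arrays (correlations of same-numbered deviations -0.29, -0.05 and 0.07). With the replicate number as a block, which leaves 3 pairs, 0 genes and 0 of the 10 were called (4911 genes at an unadjusted p under 0.05), and the difference of Pyy minus Gcg was 0.61. The pairwise shifts kept their direction in each fit without 1 array and in the block. Their p-values there say nothing of stability, since the smallest exact p was 0.0286 without 1 control, 0.0476 without 1 inflamed array and 0.25 in the block. The floor and the mean over probe sets could not move these pairs, whose genes have 1 probe set each and 0 values under the floor.

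With a floor on low values, 2 processing genes, 4 colonocyte markers and 0 neuron markers fell, and 1 mast cell marker rose.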
